A study of Mus musculus with 9 samples.

Results

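The endothelial cell marker genes described here were 10 genes that mark the inner lining of blood vessels: Pecam1, Cdh5, Tek, Tie1, Emcn, Egfl7, Cldn5, Esam, Eng and Vwf. They were chosen by name, with earlier results of these data known, as a view of the vessel content of sham heart and sham quadriceps muscle, and all 10 were found among the 24537 gene names of the table that holds both tissues. Male C57Bl/6J wild-type mice were studied. The study asked which secreted proteins change in wasting muscle of mice with heart failure, and it used sham heart to find genes that are higher in muscle. The groups were heart and quadriceps from sham-operated mice (3 libraries each) and quadriceps from mice after transverse aortic constriction (TAC, 3 libraries), in which the aorta is narrowed to a 27-gauge width so that the heart works against a raised pressure. Tissue was taken 12 weeks after surgery, which by the sample labels was done at 8 weeks of age. Nothing in the labels says which libraries came from the same mouse, so that p-values measure the spread between these libraries.

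Endothelial cells line every vessel, and in heart and skeletal muscle most of them sit in capillaries between the muscle fibres. They hold together through adherens and tight junctions (Cdh5, Esam, Cldn5), sense circulating ligands through receptors on their surface (Tek, Tie1, Eng), and store or secrete proteins such as von Willebrand factor. In bulk tissue the RNA of such a marker depends on how many endothelial cells the piece holds, on how much of the RNA each cell makes, and on how much RNA the muscle cells around them contribute. Fewer endothelial cells and less marker RNA per cell cannot be told apart in these libraries.

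The promoters of the members are shown first, as a description of their sequence only. The RefSeq promoter table (GRCm38.p6, which is mm10) was matched by symbol to 6 of the 10 members, Egfl7 with 3 start sites, and those of Pecam1, Cdh5, Esam and Vwf were not analysed here. Each stretch runs from 250 bases before to 50 bases after a RefSeq start site, and those of both angiopoietin receptors, of endoglin and of claudin 5 are printed as the members that the later comparisons set apart or pair. Capitals mark the letters CAGGAA, the core bound by ETS factors such as Erg and Fli1, on either strand (TTCCTG where it lies on the other strand).
Eng, chr2:32646345-32646644, plus strand: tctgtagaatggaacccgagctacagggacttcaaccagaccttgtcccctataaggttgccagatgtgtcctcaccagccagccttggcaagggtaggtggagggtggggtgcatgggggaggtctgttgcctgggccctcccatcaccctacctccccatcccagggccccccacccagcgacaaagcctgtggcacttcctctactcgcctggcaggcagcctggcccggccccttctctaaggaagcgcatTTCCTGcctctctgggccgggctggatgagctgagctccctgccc
Tek, chr4:94739039-94739338, plus strand: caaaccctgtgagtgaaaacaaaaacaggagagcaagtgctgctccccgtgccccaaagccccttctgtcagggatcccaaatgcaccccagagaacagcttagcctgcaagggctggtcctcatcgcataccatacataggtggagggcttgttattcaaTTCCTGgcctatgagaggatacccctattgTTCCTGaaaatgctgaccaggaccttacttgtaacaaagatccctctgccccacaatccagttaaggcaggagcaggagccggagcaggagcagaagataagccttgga
Tie1, chr4:118489800-118490099, minus strand: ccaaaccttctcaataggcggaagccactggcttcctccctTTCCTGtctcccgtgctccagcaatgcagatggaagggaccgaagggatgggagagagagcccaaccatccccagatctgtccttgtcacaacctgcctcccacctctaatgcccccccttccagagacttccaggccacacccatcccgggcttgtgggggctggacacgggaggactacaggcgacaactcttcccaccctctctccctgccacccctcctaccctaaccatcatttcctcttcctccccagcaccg
Cldn5, chr16:18776597-18776896, plus strand: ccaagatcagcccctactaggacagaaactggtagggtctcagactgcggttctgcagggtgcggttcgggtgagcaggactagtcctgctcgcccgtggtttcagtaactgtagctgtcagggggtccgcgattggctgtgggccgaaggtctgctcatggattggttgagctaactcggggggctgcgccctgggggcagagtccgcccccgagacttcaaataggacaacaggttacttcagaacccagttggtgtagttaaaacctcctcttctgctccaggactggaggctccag
The letters CAGGAA were found in 6 of the 8 member promoters, those of Emcn, Eng, Tek and Tie1 and 2 of the 3 of Egfl7, and in 30.6% of all 32851 promoters of the table. Cldn5 was the member with none. The letters CCGGAA, which end in the same letters, were in none of the 8 and in 14.9% of all promoters. Of the other letters searched on both strands, the GATA-type AGATAA was in 1 of the 8, that of Tek, and in 11.2% of all promoters, and the forkhead-type GTAAACA was in none of the 8 and in 3.65% of all promoters. The gene positions given below come from the GENCODE annotation, in which Eng, Tek and Cldn5 start at the same base as in RefSeq, whereas the RefSeq start of Tie1 (118489849) lies 212 bases inside the GENCODE gene, so that most of the printed Tie1 stretch lies within that gene. A match describes these letters in these windows and is no sign of binding.

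The depth was 37057358, 38382751 and 33102826 counts in heart libraries 1 to 3, and 32651317, 32989108 and 23383452 counts in quadriceps libraries 1 to 3. The 20 most counted transcripts took 19.6%, 19.0% and 19.6% of the counts in heart and 28.9%, 34.0% and 30.3% in quadriceps. This matters for every fold change below. TMM scaling, which assumes that most transcripts do not differ, put the median log2 fold change of all transcripts (heart minus quadriceps) at 0.056, whereas division by the library totals put it at 0.80. The fold changes below use TMM unless another scaling is named, and levels are given as RPKM, counts scaled to transcript length and to the library total. RPKM uses the library totals, so that a ratio of RPKM values is larger than the fold change after TMM.

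The tissue labels were checked first. All 7 cardiomyocyte genes were higher in heart, for example Myh6, the main adult heart myosin, with 933029, 889236 and 768767 heart counts beside 82, 72 and 59 from quadriceps. All 7 skeletal fibre genes were lower in heart, for example Myh4, the fast fibre myosin, with 50, 34 and 32 heart counts beside 559634, 726121 and 708200 from quadriceps. Within each tissue 1 library stood apart for other cells, as seen in genes chosen after their values were known. Heart library 1 had the highest RPKM of all 4 atrial genes examined: Myl7 had 2075, 164 and 3 counts in heart libraries 1 to 3, Myl4 had 6811, 756 and 91, and the summed level of the 4 was 1038, 642 and 286 RPKM, most of it from Nppa. Quadriceps library 1 had the highest RPKM of all 5 fat cell genes examined, with 1183, 425 and 94 counts of Adipoq in quadriceps libraries 1 to 3 and a summed level of 96.0, 38.9 and 11.1 RPKM, against 1.71, 0.924 and 0.489 in heart. The most abundant of these was Cfd, and none of the 5 was at 0 in quadriceps. The tissue comparison is therefore also given without these libraries.

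All 10 endothelial markers were higher in sham heart than in sham quadriceps at an adjusted p under 0.05 (edgeR's quasi-likelihood test, Benjamini-Hochberg adjusted over 24280 transcripts), where 34.4% of all tested transcripts were called higher in heart and 32.2% lower. The median log2 fold change of the 10 was 1.41 and ran from 0.80 for Esam to 2.46 for Eng, and the libraries of both tissues did not overlap for any of them, as was so in the same direction for 38.3% of all transcripts. All 22 transcript rows of the 10 genes were called higher in heart, but rows of 1 gene share reads, and each gene is described by its most counted row. The summed level of the 10 was 181, 193 and 199 RPKM in heart libraries 1 to 3 and 46.8, 37.5 and 45.0 RPKM in quadriceps libraries 1 to 3, a ratio of the means of 4.43. With library totals in place of TMM the median of the 10 was 2.16, and it lay above the median of all transcripts by 1.36 with TMM and by 1.35 with totals. Only Eng passed the stricter rule of a log2 fold change over 2 with p under 0.05, which 8.64% of transcripts passed, while with library totals 7 of the 10 and 17.2% of transcripts did so. Without heart library 1 the median of the 10 was 1.43, and without quadriceps library 1 it was 1.41, with all 10 still called.

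**Figure D1:**
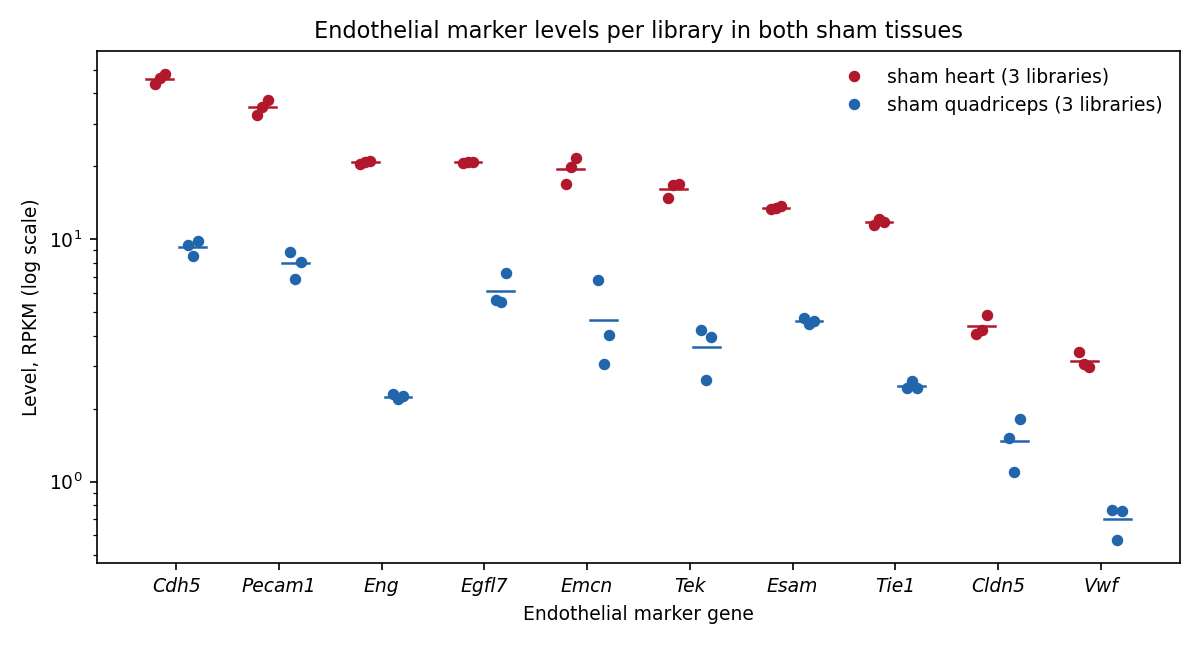
Level of each endothelial marker in each sham library, in RPKM on a log axis, ordered by the heart mean. Points are libraries (3 a tissue) and short lines are means. For each of the 10 genes the 3 heart libraries lie above the 3 quadriceps libraries, and Eng, the third in heart, is the eighth in quadriceps.

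Among the junction genes, Cdh5 and Pecam1 had the highest levels, and Esam and Cldn5 the smallest fold changes. Cdh5 (VE-cadherin, the endothelial adherens junction cadherin; chromosome 8, 104101625 to 104144511, plus strand, in the GENCODE annotation of GRCm38) was the most abundant member in both tissues. Its level was 43.5, 46.4 and 48.1 RPKM in heart and 9.46, 8.51 and 9.87 RPKM in quadriceps, from 6408, 7080 and 6320 counts against 1227, 1115 and 917. Its log2 fold change was 1.56 (SE 0.10, adjusted p = 1.176e-06 by edgeR), the second largest of the 10. Pecam1 (CD31, an adhesion receptor of endothelial junctions that platelets and leukocytes also carry; chromosome 11, 106654217 to 106750628, minus strand) was second in both tissues. It measured 32.7, 35.3 and 37.5 RPKM in heart and 8.90, 6.89 and 8.08 RPKM in quadriceps, with a log2 fold change of 1.40 (SE 0.10, adjusted p = 2.474e-06 by edgeR). In quadriceps the libraries of Cdh5 and Pecam1 overlapped, and in heart they did not.

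Both tight junction genes showed the smallest differences. Esam (endothelial cell adhesion molecule; chromosome 9, 37528078 to 37538319, plus strand) measured 13.3, 13.4 and 13.7 RPKM in heart and 4.75, 4.47 and 4.59 RPKM in quadriceps. The libraries of each tissue lay close together, and the log2 fold change was 0.80 (SE 0.094, adjusted p = 5.52e-05 by edgeR). Cldn5 (claudin 5, a strand-forming protein of endothelial tight junctions; chromosome 16, 18776847 to 18778262, plus strand) was the least counted member, with 213, 228 and 228 heart counts against 70, 51 and 60 from quadriceps. Its level was 4.07, 4.20 and 4.87 RPKM against 1.52, 1.09 and 1.82 RPKM, and its log2 fold change was 0.84 (SE 0.18, adjusted p = 0.002646 by edgeR). This was the largest adjusted p of the 10 markers.

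Of the receptors, endoglin stood out. Eng (the co-receptor through which BMP9 and TGF-beta ligands act on endothelium; chromosome 2, 32646595 to 32682669, plus strand) was counted 2684, 2836 and 2487 times in heart, against 266, 256 and 188 times in quadriceps. Its level was 20.4, 20.8 and 21.1 RPKM in heart and 2.29, 2.18 and 2.26 RPKM in quadriceps. The spread within each tissue was small beside the gap between them, and the log2 fold change of 2.46 (SE 0.098, 95% interval 2.24 to 2.68, adjusted p = 4.411e-08 by edgeR) corresponds to a 5.49-fold difference. The interval of Eng did not reach that of any other member, of which Emcn had the highest upper end at 1.82.

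Tek and Tie1, the paired receptors of the angiopoietin system, differed by about the same amount. This was not particular to the pair, since Vwf (1.43) and Pecam1 (1.40) lay near it too. Tek (Tie2, which binds the angiopoietins; chromosome 4, 94739289 to 94874976, plus strand) measured 14.8, 16.8 and 17.0 RPKM in heart and 4.23, 2.63 and 3.95 RPKM in quadriceps, where library 2 was the low one. Its log2 fold change was 1.43 (SE 0.14, adjusted p = 2.131e-05 by edgeR). Tie1 (an orphan receptor that modulates Tek; chromosome 4, 118471191 to 118490061, minus strand) measured 11.4, 12.1 and 11.8 RPKM in heart and 2.42, 2.61 and 2.43 RPKM in quadriceps, with a log2 fold change of 1.49 (SE 0.11, adjusted p = 2.424e-06 by edgeR). The CAGGAA letters shown above were in the promoters of both, as in those of Emcn, Eng and Egfl7 and in 30.6% of all promoters. A link with the fold changes was not tested.

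The remaining members are secreted or surface glycoproteins. Emcn (endomucin, a sialomucin of capillary and venous endothelium; chromosome 3, 137341067 to 137432185, plus strand) measured 16.9, 19.8 and 21.7 RPKM in heart and 6.82, 3.06 and 4.02 RPKM in quadriceps. Its log2 fold change of 1.33 had the largest error of the 10 (SE 0.22, adjusted p = 0.0004472 by edgeR). Quadriceps library 1, the one with the most fat cell RNA, was the highest of its tissue for Emcn, and without it the log2 fold change was 1.64 (its part in the value was not tested otherwise).

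Egfl7 (a secreted protein of the vessel matrix; chromosome 2, 26580014 to 26593120, plus strand) measured 20.7, 20.8 and 20.7 RPKM in heart and 5.63, 5.53 and 7.27 RPKM in quadriceps, with a log2 fold change of 1.01 (SE 0.13, adjusted p = 0.0001153 by edgeR). Its gene overlaps Gm20532 on the same strand and the end of Agpat2 on the other strand, and the end of Eng likewise overlaps Fpgs on the other strand. Cdh5 overlaps the antisense gene Gm29682. Since the strand setting of the counting is not given in the sources used here, reads in these overlaps cannot be assigned. Egfl7 also hosts Mir126a, whose mature product miR-126a-3p is the best known endothelial microRNA. It is shown here for its place in this gene, with its seed, bases 2 to 8, in capitals.
mmu-miR-126a-3p, chromosome 2, 26591402 to 26591423, plus strand, GRCm38.p6: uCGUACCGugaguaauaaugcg
Heart libraries held 6, 5 and 5 counts of the hairpin row, quadriceps libraries 0, 4 and 1. These libraries were made from messenger RNA, so the counts do not measure the mature microRNA, and the row was too low to be tested.

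Vwf (von Willebrand factor, stored in endothelial granules and in platelets; chromosome 6, 125546774 to 125686679, plus strand) was the lowest member per kilobase in both tissues. Its level was 3.42, 3.07 and 2.98 RPKM in heart and 0.764, 0.577 and 0.755 RPKM in quadriceps, and its log2 fold change was 1.43 (SE 0.12, adjusted p = 5.989e-06 by edgeR). Platelets also hold Vwf, and their genes are given beside it. Of 6 platelet genes 5 were tested, of which Ppbp was called higher in heart (log2 fold change 2.01) and Pf4 and Gp1ba lower (-0.61 and -1.40), Pf4 changing sign to 0.13 with library totals, where 3 were higher and 1 lower. Their summed level was 7.42, 6.61 and 6.62 RPKM in heart and 6.71, 4.39 and 6.33 RPKM in quadriceps, Pf4 was the most abundant, and Gp9 was at 0 in 4 of the 6 libraries. Ppbp was no longer called without heart library 1, quadriceps library 1 or quadriceps library 2.

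**Figure D2:**
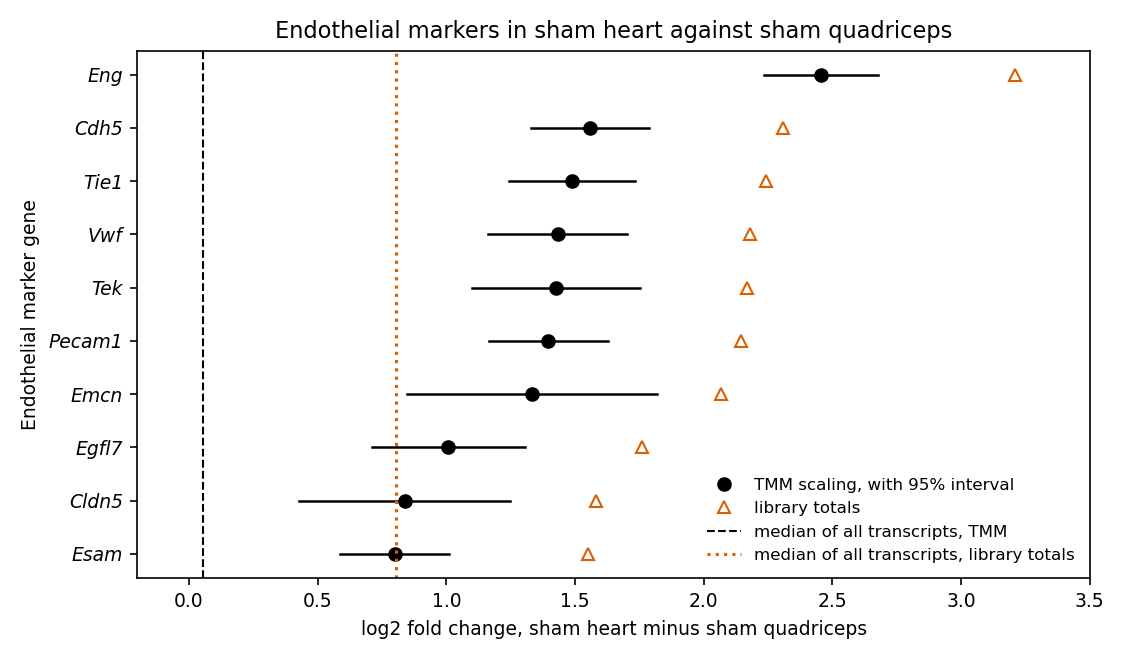
Log2 fold change of each endothelial marker, sham heart minus sham quadriceps, with TMM scaling (filled circles, bars are 95% intervals of the edgeR fit) and with library totals (open triangles). The dashed and dotted vertical lines are the medians of all 24280 transcripts under each scaling, 0.056 and 0.80. Each gene lies above the median of its own scaling, from 0.80 (Esam) to 2.46 (Eng) with TMM.

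The order of the levels differed between the tissues mainly in the place of Eng. In heart it ran Cdh5, Pecam1, Eng, Egfl7, Emcn, Tek, Esam, Tie1, Cldn5, Vwf, and the neighbours from Eng to Tek had overlapping libraries. In quadriceps it ran Cdh5, Pecam1, Egfl7, Emcn, Esam, Tek, Tie1, Eng, Cldn5, Vwf, and the neighbours from Cdh5 to Esam had overlapping libraries. Endoglin was level with Egfl7 in heart (mean 20.8 RPKM for each) and was 2.24 against 6.14 RPKM in quadriceps. Tek and Esam also changed places: each Tek library lay above each Esam library in heart (means 16.2 and 13.5 RPKM), and each lay below in quadriceps (3.60 and 4.60 RPKM).

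To see unequal differences without any scaling of libraries, the log2 level of each member was taken relative to the median of the 10 in the same library. Relative to the others, Eng was 0.24 ± 0.11 above that median in heart and at -0.72 ± 0.31 in quadriceps (SD, n = 3), a difference of 0.96 on the log2 scale with no overlap. The difference was negative for Esam (-0.69) and Cldn5 (-0.65), again with no overlap. Egfl7 differed by -0.48, but its libraries overlapped, and the remaining 6 members differed by no more than 0.10 in either direction and overlapped as well. With 3 libraries a tissue, the smallest p of an exact permutation test (two-sided) is 0.1, so no test is given for these differences. With 1 library left out, the difference ran from 0.84 to 1.14 for Eng, from -0.81 to -0.52 for Esam and from -0.75 to -0.54 for Cldn5, while those of Cdh5, Emcn, Tie1 and Vwf, all near 0, changed sign in 1 or more cases (Emcn to 0.081 and Cdh5 to -0.057 without quadriceps library 1).

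**Figure D3:**
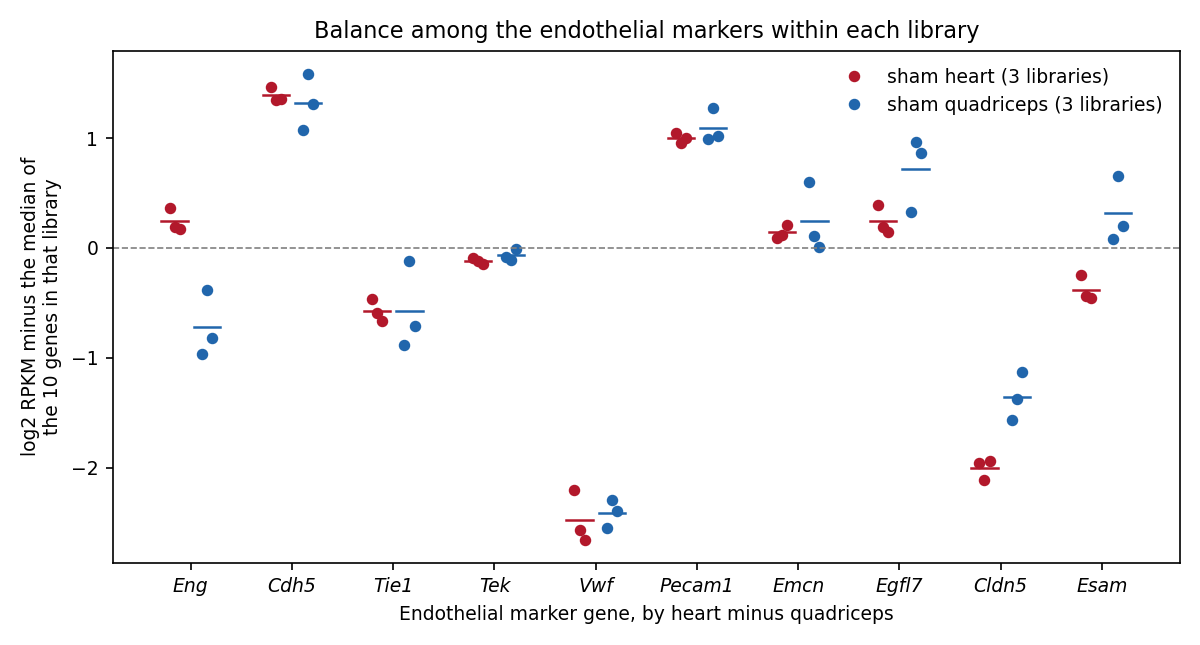
Log2 RPKM of each endothelial marker minus the median of the 10 markers in the same library, ordered by the difference between tissues. Points are libraries (3 a tissue) and short lines are means. Eng is higher in each heart library, Cldn5 and Esam are higher in each quadriceps library, and the other genes overlap.

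Other genes of endothelial cells followed the members for the most part. Of 28 further pan-endothelial genes, 24 were called higher in heart, 1 lower and 3 neither, with a median log2 fold change of 1.26 beside 0.056 for all transcripts. The largest differences were those of Aplnr, the apelin receptor (3.09), and of the endothelial transcription factors Sox18 (2.82) and Sox7 (2.23). Heart libraries held 1185, 1563 and 1535 counts of Aplnr, quadriceps libraries 128, 73 and 50. At the other end were Sox17, a factor of arterial endothelium, which was called lower in heart with TMM (-0.77, adjusted p = 0.001641 by edgeR) but not with library totals (-0.023, adjusted p = 0.9089), the adrenomedullin and CGRP receptor Calcrl (0.019) and the sphingosine phosphate receptor S1pr1 (0.16), both of which were called higher with library totals (0.75 and 0.90). Podxl, the sialomucin podocalyxin, was the most abundant of the 28 in heart, at a mean of 44.4 RPKM against 11.1 in quadriceps, where Tspan7 led at 15.5 RPKM. The summed level of the 10 members was 0.529 to 0.548 of that of the 28 genes in heart and 0.446 to 0.510 in quadriceps.

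Among genes of separate vessel types, all 8 genes of the arterial list, which does not hold Sox17, were higher in heart (median 1.47). They ran from Sema3g, a guidance ligand, at 1.15 to Unc5b, a netrin receptor, at 3.31. Unc5b was counted 587, 701 and 513 times in heart, against 25, 41 and 22 times in quadriceps, and Efnb2, the arterial ephrin ligand, was the most abundant of the list. Of 10 capillary genes, 4 were higher, 3 lower and 3 neither (median 0.28), and of 6 venous genes, 2 were higher, 3 lower and 1 neither (median -0.41). These counts depended on the scaling. With library totals, 6 capillary genes were higher and 1 lower (median 1.02), and 3 venous genes were higher and 1 lower (median 0.34), while 62.6% of all transcripts were then called higher and 13.3% lower. The capillary counts lay near the shares of all transcripts under both scalings. Rgcc, a regulator of the cell cycle found in capillary endothelium, was counted 274, 343 and 269 times in heart, against 1141, 1654 and 1668 times in quadriceps, a log2 fold change of -3.44 (adjusted p = 3.653e-06 by edgeR). It was lower in heart with library totals too (-2.67). Fabp4, the most abundant capillary gene and also a fat cell gene, did not pass the test (0.08, SE 0.27, adjusted p = 0.8114 by edgeR), and its highest quadriceps value, 10777 counts beside 4839 and 3193, was in library 1. Tcf15, a factor of heart and muscle capillaries, was the highest of the capillary list at 1.01.

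Among the venous genes, Ephb4, the receptor of Efnb2 and the most abundant of the 6 in heart, was higher in heart (2.0), and Ackr1, a chemokine receptor of venules, was lower (-3.22, from 4, 3 and 4 counts against 30, 12 and 11). The 7 lymphatic genes gave 3 higher, 1 lower and 3 neither, with a median of 0.25, and 5 higher and 0 lower with library totals. Prox1 was the most abundant in heart and had the highest log2 fold change, 5.36, with 1415, 1620 and 1056 counts against 21, 10 and 17; it marks lymphatic endothelium but cardiomyocytes express it as well. Pdpn was the lowest at -1.10, and it was not called with library totals (-0.35, adjusted p = 0.1107 by edgeR). Of 4 endocardial genes, Npr3 and Hapln1 were higher in heart, Cytl1, the most abundant in heart, was not called with TMM (0.66) but was with library totals (1.39), and Nfatc1 was called lower (-0.72) with TMM but not with library totals (0.030). Hapln1 rested on 16, 12 and 3 heart counts against 0, 0 and 1 from quadriceps, and only 1 endocardial gene was called higher without heart library 1, heart library 2 or quadriceps library 2, or when 10 counts were required in every library.

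The partners of the members were mostly higher in heart as well. Of 9 listed, 7 could be tested, of which 5 were higher, 1 lower and 1 neither, with a median of 1.10 (2 were lower without quadriceps library 2). Tjp1 (ZO-1, the scaffold of tight junctions) was the highest at 2.09, and Jup (plakoglobin, which binds VE-cadherin and is also part of the cardiac desmosome) was the most abundant in heart, whereas Bmpr2 was in quadriceps. Acvrl1 (ALK1, the receptor that works with endoglin) was at 1.19, and Bmpr2, the type II receptor of the same complex, was the lowest. It was called lower in heart with TMM (-0.94) and not with library totals (-0.20). The Tek ligand Angpt1 did not pass the test (-0.31, adjusted p = 0.209 by edgeR, and 0.42 with library totals), while Angpt2, which can oppose it, was higher in heart (0.74). Gdf2 (BMP9, made in the liver) was at 0 in all 6 libraries.

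**Figure D4:**
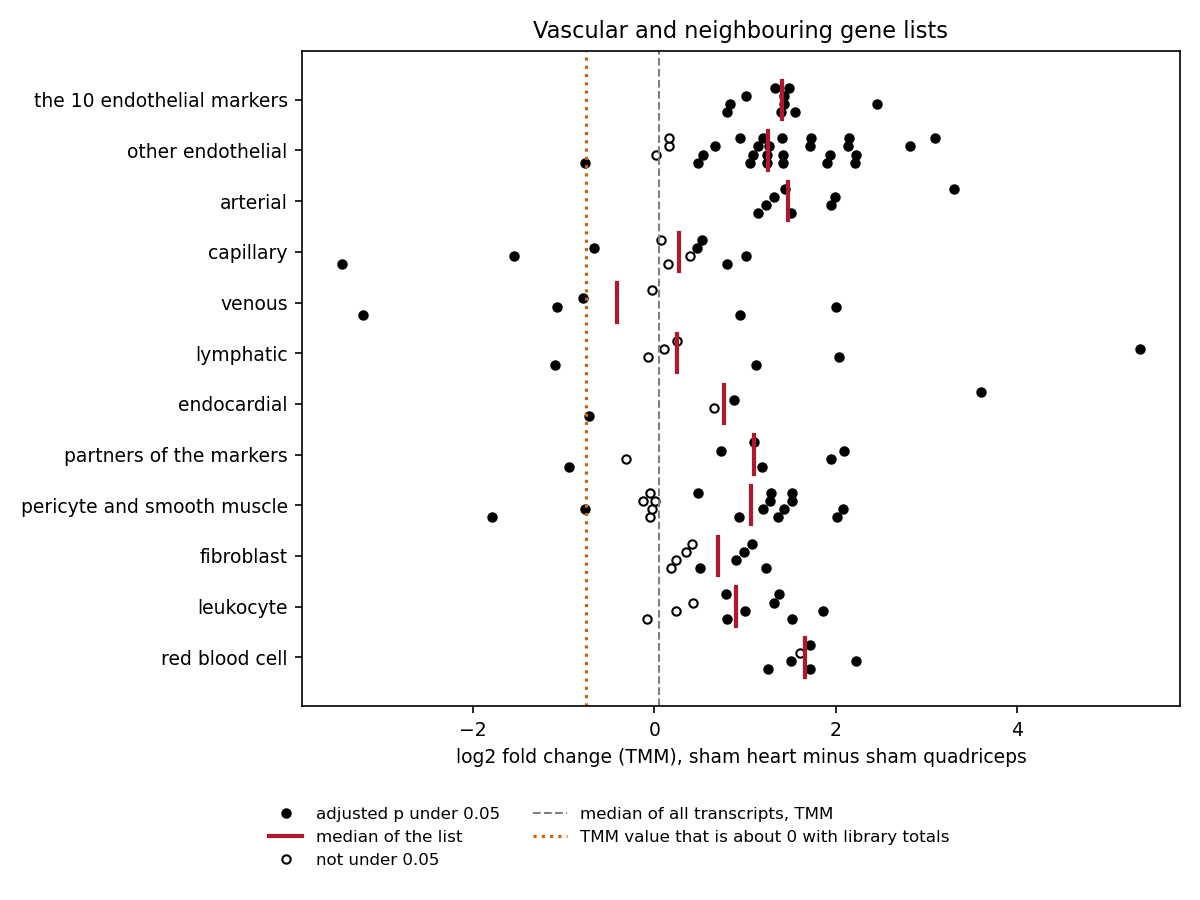
Log2 fold change (TMM), sham heart minus sham quadriceps, of each tested gene of 12 lists. Filled points passed an adjusted p under 0.05, open points did not, red bars are list medians, the dashed line is the median of all transcripts and the dotted line marks TMM values that are about 0 with library totals. The fibroblast gene Tcf21, listed at 0 in quadriceps, is counted in the median but not drawn. The arterial list lies wholly to the right, while capillary and venous genes lie on both sides.

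Other cells of the tissue also differed. Of 18 pericyte and smooth muscle genes, 11 were higher in heart, 2 lower and 5 neither (median 1.07), and 15 were higher and 1 lower with library totals. Notch3, a receptor of mural cells, was the highest (2.08), the smooth muscle gene Lmod1 the lowest (-1.78), and the most abundant, the pericyte gene Rgs5, did not pass the test with TMM (log2 fold change 0.0084, SE 0.17, adjusted p = 0.9676 by edgeR) and was called higher with library totals (0.74, adjusted p = 0.01091). The 10 fibroblast genes gave 6 higher and 4 neither (median 0.70), and all 10 were called higher without quadriceps library 1 and also with library totals. Dcn (decorin) was their most abundant and lowest gene (0.18), and Tcf21, a fibroblast factor, was counted 215, 247 and 166 times in heart and never in quadriceps, at least 32.8-fold higher in heart when 3 counts per library are taken as the floor. Leukocyte genes gave 7 higher and 3 neither of 10 tested (median 0.90, and 10 higher with library totals), from Itgam at -0.08 (0.67 with library totals) to the monocyte gene Cd14 at 1.87, with the macrophage gene C1qa the most abundant in heart. Fat cell genes went the other way, with log2 fold changes of the 5 from -6.99 for Retn (SE 0.79) to -3.80 for Plin1 (SE 0.72). These rest on few heart counts, 2, 5 and 2 for Retn and 13, 5 and 5 for Plin1. The quadriceps libraries also differed widely, with 393, 201 and 41 counts of Retn.

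Red blood cell genes were mostly higher in heart too. Of 6 tested, 5 were higher in heart (median 1.67), and their summed level was 581, 666 and 545 RPKM in heart and 127, 89.9 and 111 RPKM in quadriceps. Hba-a1, the most abundant, had the same counts as its near-identical copy Hba-a2 in each library, so both share reads. With Hba-a2 left out, 4 of 5 genes were higher, and the sum was 314, 358 and 296 RPKM in heart and 69.2, 48.6 and 60.5 RPKM in quadriceps. Alas2, the first enzyme of haem synthesis in red cells, was the highest (2.23), and Hbb-bt the lowest (1.25). The summed level of the endothelial members relative to that of the red cell genes was 0.312, 0.289 and 0.366 in heart and 0.370, 0.418 and 0.405 in quadriceps. With Hba-a2 left out it was 0.577, 0.539 and 0.675 in heart and 0.676, 0.772 and 0.745 in quadriceps. Relative to the mural genes the ratio was 0.752, 0.730 and 0.796 in heart and 0.339, 0.386 and 0.383 in quadriceps. The part of blood left in the tissue, or of any of these cell types, in the levels of the members was not tested.

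The second comparison asked how the members changed in wasting quadriceps after TAC. The table for it holds 587 genes of secreted or extracellular proteins, of which 586 were tested, and it lists 4 of the 10 members: Pecam1, Vwf, Eng and Egfl7. It shares its sham quadriceps libraries with the tissue comparison, and its rows for Pecam1, Eng and Egfl7 are other transcripts of these genes than those described above. Pecam1 and Vwf were called higher after TAC (edgeR, adjusted p under 0.05), where 17.7% of the 586 genes were called higher and 11.9% lower. Neither was called with library totals (5 libraries). When 1 library was left out, each kept its call in 1 of 6 cases. Their log2 fold changes then ran from 0.53 to 0.68 for Pecam1 and from 0.64 to 0.94 for Vwf.

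The raw counts below are not corrected for depth, which was greater after TAC where it was known. TAC libraries 1 and 2 held 48614494 and 48999600 counts in all, against 32651317, 32989108 and 23383452 in sham libraries 1 to 3. Pecam1 had 933, 740 and 607 counts in sham and 1298, 1170 and 1211 in TAC quadriceps. After TMM scaling over the listed genes this was 780 ± 47.3 against 1205 ± 56.5 (SD, n = 3), with no overlap, and a log2 fold change of 0.63 (SE 0.18, adjusted p = 0.03411 by edgeR). The share of all listed genes without overlap was not counted. The endothelial gene Mmrn2 did not overlap either, though it was not called (adjusted p = 0.3029 by edgeR). Vwf had 219, 167 and 155 counts against 271, 367 and 376, scaled to 187 ± 23.4 and 333 ± 61.4, with a log2 fold change of 0.84 (SE 0.25, adjusted p = 0.03458 by edgeR). Eng had 259, 248 and 183 counts against 241, 271 and 221, scaled to 238 ± 23.4 and 240 ± 22.7, and its log2 fold change was 0.015 (95% interval -0.49 to 0.52, adjusted p = 0.9713 by edgeR). Egfl7 had 232, 234 and 218 counts against 202, 195 and 372, where the TAC library without a replicate number stood far above the others, and its log2 fold change was 0.069 (95% interval -0.69 to 0.83, adjusted p = 0.8955 by edgeR).

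Library totals were available for 5 libraries, all but the TAC library without a replicate number. With them the median of all listed genes was -0.63 rather than 0.029, and no member was called higher. Pecam1 was at -0.02 (adjusted p = 0.9479), Vwf at 0.092 (0.8143) and Eng at -0.56 (0.1033), while Egfl7 was called lower at -0.94 (adjusted p = 0.03333, all by edgeR). Scaling and libraries changed together here. With TMM and without the unnumbered library, the median was -0.081, Egfl7 was at -0.40 and not called, and neither Pecam1 nor Vwf was called. Leaving out 1 library left 0 or 1 of the members called, although the log2 fold changes stayed between 0.53 and 0.68 for Pecam1 and between 0.64 and 0.94 for Vwf. A ratio within a library does not depend on scaling. The ratio of Pecam1 to Eng counts was 3.60, 2.98 and 3.32 in sham and 5.39, 4.32 and 5.48 in TAC, and that of Vwf to Eng was 0.846, 0.673 and 0.847 in sham and 1.12, 1.35 and 1.70 in TAC. Neither overlapped. A two-sided exact permutation test gave p = 0.1 for each, the smallest that 3 against 3 libraries can give, so it could not decide. The ratio of Egfl7 to Eng overlapped (exact permutation p = 1). Eng was taken as the reference after its values were seen, so these ratios are no separate support for the changes of Pecam1 and Vwf. Relative to Egfl7, the ratio of Pecam1 was 4.02, 3.16 and 2.78 in sham and 6.43, 6.0 and 3.26 in TAC, which overlapped (exact permutation p = 0.2), and that of Vwf was 0.944, 0.714 and 0.711 against 1.34, 1.88 and 1.01, which did not (exact permutation p = 0.1).

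**Figure D5:**
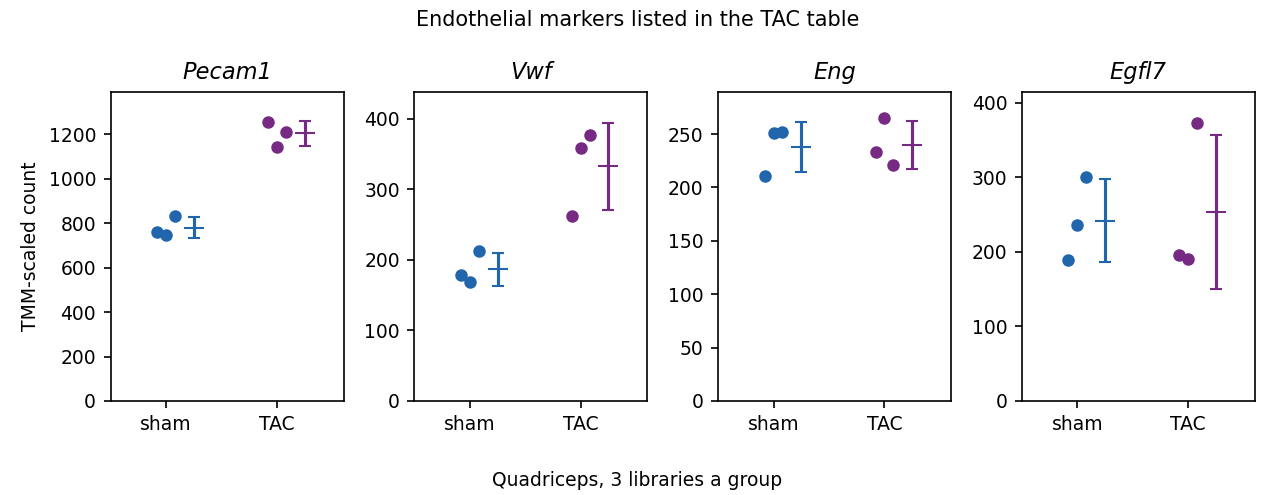
TMM-scaled counts of the 4 endothelial markers in the TAC table, sham and TAC quadriceps. Points are libraries (3 a group), and bars are the mean and SD. The TAC libraries of Pecam1 and Vwf lie above those of sham, and those of Eng and Egfl7 overlap with sham. The share of all listed genes without overlap was not counted.

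With TMM, other vascular genes of this table went both ways. Of the 2 further pan-endothelial genes, Flt1, a VEGF receptor, was called higher (0.76, adjusted p = 0.04868 by edgeR) and Mmrn2 was not (0.34). Flt1 was not called with library totals (0.33, adjusted p = 0.226 by edgeR). The 4 capillary genes gave 2 higher, Car4, a carbonic anhydrase (1.12), and Gpihbp1, which holds lipoprotein lipase on capillaries (0.84). Neither was called with library totals (0.55 and 0.19). Without 1 library, Flt1 kept its call in 1 of 6 cases, Car4 in 3 and Gpihbp1 in 2, with log2 fold changes above 0 throughout. Of the other lists, Vcam1, an adhesion molecule of activated endothelium, was lower (-1.01, adjusted p = 0.02058 by edgeR, and -1.74 with library totals), a call kept in 4 of 6 such cases. Beside them, 7 of 8 fibroblast genes were lower after TAC, with a median of -2.07, and Col1a1 fell from 857, 571 and 554 counts to 53, 67 and 88. Of the leukocyte genes 2 of 3 were lower, Itgam (-1.74) and C1qa (-0.89), and of the platelet genes 1 of 2, Pf4 (-1.45), while 0 of the 3 red cell genes were called. Of these, Hba-a1 and Hba-a2 again had the same counts, 1044, 759 and 663 in sham and 1073, 1275 and 191 in TAC. The value of 191 was that of the unnumbered library. Each of the fibroblast, leukocyte and platelet genes called lower here was also called lower with library totals. That setting, on 5 libraries, moved the listed genes down as a whole (median -0.63, against 0.029 with TMM), so it was no separate check of these calls. Without 1 library, C1qa kept its call in 1 of 6 cases, Pf4 in 4 and Itgam in 6. Of the fibroblast genes called lower, Mfap5 kept its call in 3 of 6 cases, Pi16 in 5 and the others in 6. The part of these cell types in the values of the members was not tested.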

How the data were processed

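RNA sequencing libraries of 3 sham hearts, 3 sham quadriceps and 3 TAC quadriceps were used, each made from 100 ng of total RNA. The authors used Trim Galore for trimming, STAR for alignment to mm10, and Rsubread for the raw read counts of RefSeq transcripts that were deposited. Versions and the strand setting are not given in the sources used here. The deposited RPKM values equal the counts divided by transcript length and library total. Both tables also hold the authors' edgeR fold changes and p-values, which were not used. In the TAC table, a counts column numbered 4, where the labels run to 3, was taken as a TAC library with no number, and 1 column of a single library, its RPKM column, was left unused.

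The test was that of edgeR 4.0.16 (R 4.3.3) on the counts (TMM, quasi-likelihood test, Benjamini-Hochberg adjustment over all rows), for rows above 5 counts in 2 or more libraries: 24280 transcripts of 35745, and 586 genes of the TAC table. Each gene was read from its row with the highest mean count. Standard errors and 95% intervals come from the same fit. On simulated data of the tissue comparison (200 transcripts changed 4-fold), the fit recovered 100% of them, with 12.3% of calls false when counts were drawn with each transcript's own estimated dispersion (23906 tested) and 3.85% false with the trended dispersion (23917 tested); for the TAC comparison (586 genes) 99% and 100% were recovered, with 2.46% and 2.44% false. All other rows were simulated without a difference, with as many rises as falls among the changed ones, which meets the assumption of TMM. The simulations therefore did not test the scaling, nor differences below 4-fold such as those of most members. Alternatives were DESeq2 1.42.0, other scalings and filters, limma 3.58.1 on log2 RPKM, the replicate number as a block, and leaving out each library. The members and gene lists were chosen with earlier results of these data known, and the fat cell and atrial genes after their values were seen. Named were all 10 members; from the further pan-endothelial list, the 3 highest and 3 lowest by log2 fold change; and from each other list fixed with them, the most abundant (mean RPKM over both tissues), highest and lowest gene. The cardiomyocyte and skeletal fibre lists checked labels only. Genes outside this rule (Myh6, Myh4, Podxl, Tspan7, Acvrl1, Angpt1, Angpt2, Gdf2, Npr3, Gp9, Hba-a2, the fat cell and atrial genes, and genes of the TAC table other than members) were chosen after their values were seen. Gene positions came from GENCODE vM21, and promoters and the microRNA from RefSeq. Same-numbered sham libraries did not deviate together (correlations 0.061, -0.043 and 0.043). Replicates of a group were no closer than sampling noise allows (lowest chi-square per degree of freedom 7.40).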

Additional observations from a re-analysis of the deposited data

How the results depend on the processing

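The 10 members were called higher in heart under each of the 16 alternatives to the tissue comparison, by edgeR, DESeq2 and limma, with log2 fold changes from 0.69 (Cldn5 without quadriceps library 2) to 3.21 (Eng with library totals). The replicate number as a block left all 10 called, with a median of 1.42, and changed no other call of a member; the sham libraries share only a number. How many members passed a log2 fold change over 2 depended on the scale: 7 with library totals and 6, 3 and 7 with limma on log2 RPKM at pseudocounts of 0.5, 1 and 0.1, where 17.2%, 5.54%, 3.72% and 10.7% of transcripts passed. Transcripts higher and lower in heart numbered 15203 and 3240 with library totals, 15319 and 3201, 15322 and 3194, and 15365 and 3218 with limma in the same order, and 5059 and 4744 with 1 transcript per gene, where 14906 were tested. The median of all transcripts was 0.80 with library totals and 0.49, 0.38 and 0.70 with limma, where test, scaling and pseudocount changed together.

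The TAC comparison was less stable. Library totals were used on 5 libraries, without the unnumbered TAC library, so that scaling and libraries changed together. With them 0 members were called higher and 1, Egfl7 (-0.94), lower, beside 20 genes higher and 180 lower in all. Pecam1 was then at -0.021 and Eng at -0.56. With the replicate block on the 4 libraries whose numbers both groups share, 0 members and 56 genes were called higher and Egfl7 was at -0.13; the same 4 libraries without the block, chosen after seeing the data, gave 0 members, 49 genes higher, 39 lower and Egfl7 at -0.14. Leaving out 1 library gave 0 to 1 members and 25 to 113 genes higher and 35 to 102 lower; both members lost their call without any 1 sham library or the unnumbered TAC library, Pecam1 without TAC library 1 and Vwf without TAC library 2. Their log2 fold changes ran from 0.53 to 0.68 and from 0.64 to 0.94. Those of Egfl7 ran from -0.40 to 0.25, with -0.12 without sham library 1 and -0.40 without the unnumbered TAC library, and those of Eng from -0.10 to 0.058, with -0.10 without sham library 1 and -0.033, -0.062 and -0.018 without each TAC library. The cause was not tested. Precision rests on 3 libraries a group, and Cldn5, with 51 to 228 counts, had the fewest reads of the members.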
